A study of Caenorhabditis elegans with 2 samples.

Results

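The 6 genes described here are 4 FMRFamide-like peptide genes of the BAG neurons of Caenorhabditis elegans, flp-10, flp-13, flp-17 and flp-19, and 2 transcription factor genes that act in those neurons, egl-13 and egl-46. They were chosen by name, out of 19973 protein-coding genes of the annotation. Their regions were those whose summit lay within 2000 bp of an annotated start site or inside the gene, which gave 38 of the 126002 regions in the ranked list deposited for the whole series (the series list), whose sources do not state how it was drawn from the replicates. The replicates' own ranked lists held 35 of 108309 regions (replicate 1) and 34 of 92443 regions (replicate 2) at these genes.

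The series has 1 group with 2 biological replicates of chromatin immunoprecipitation with sequencing (ChIP-seq) for ETS-5, so no treatment or genotype is set against another and no test between conditions is possible. The worms were of strain OP809, which carries the integrated fosmid transgene wgIs809, with ets-5 joined to TY1, EGFP and 3xFLAG tags, and unc-119(+) in an unc-119(tm4063) background. Whole L1 larvae, kept without food after bleaching, were collected at 6 hours. Both replicates come from this 1 transgenic strain, cell types were not separated, and the labels name an antibody to GFP in 1 field and ets-5 in another. Since the BAG neurons are a small share of a larva, occupancy in few cells and weak occupancy in many cells cannot be told apart.

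FMRFamide-like peptides (FLPs) are short neuropeptides cut from larger precursors, amidated and released from dense-core vesicles to act on G protein-coupled receptors. The BAG neurons sense oxygen and carbon dioxide in the worm's surroundings, and their identity depends on the ETS-family factor ETS-5. FLP-17 and FLP-10 are ligands of the receptor EGL-6, which inhibits egg laying, and FLP-13 promotes sleep when it is released from the ALA neuron. EGL-13 is a SoxD protein that takes part in specifying the BAG and URX gas-sensing neurons, and EGL-46 is a zinc-finger protein of the insulinoma-associated family.

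None of the 6 genes had a region that passed the authors' threshold, in the series list or in any of the other 3 lists that pass it. Over all protein-coding genes, 1.3% had such a region in the main list and 0.931% in the conservative list, so a count of 0 among 6 is near that background. The replicates' own passing lists held only 21 (replicate 1) and 26 (replicate 2) regions in the whole genome. Ranked regions below the threshold were present at 5 genes, and flp-19 had none. In flp-17 the region of highest signal stood at the 93.2 percentile of the ranked list, the highest of the 6. The signal is the value that the authors' caller gave each region, on a scale that is not stated, so it orders regions only within a list. Percentiles count from 0 to 100, where 100 is the highest signal.

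The core word of ETS-family binding sequences, CCGGAA, is shown first, to place its copies beside the ranked regions, which cover 36.9% of the genome, so that most copies of any word could lie outside them. It was searched on both strands over the whole searched interval of each gene, where it occurred 12 times in 32.9 kb, at 3.65 per 10 kb, against 5.96 per 10 kb over the genome. The 3 peptide genes with upstream copies follow, each read 5' to 3' on the gene's strand from the RefSeq sequence of WBcel235, which has the coordinates of ce11. Capitals mark CCGGAA or its reverse complement TTCCGG, which merge where they overlap, and 20 bases are given on each side.
flp-10 (chrIV:7868283-7868330, plus strand): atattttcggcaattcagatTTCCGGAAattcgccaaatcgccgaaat
flp-17 (chrIV:17192044-17192089, minus strand): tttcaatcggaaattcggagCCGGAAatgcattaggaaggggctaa
flp-19 (chrX:10604365-10604556, plus strand): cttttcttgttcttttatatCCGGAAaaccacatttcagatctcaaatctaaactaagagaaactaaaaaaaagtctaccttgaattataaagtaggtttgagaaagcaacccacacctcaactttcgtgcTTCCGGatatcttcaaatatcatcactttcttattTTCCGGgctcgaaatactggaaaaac

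In flp-10 the word and its reverse complement overlap about 600 bp before the start site, and no region of the series list covered them. A region of replicate 1 with a signal of 14.8 did. So did a region of the other ranked list of the series, with a signal of 18.7. The flp-17 copy lay 175 bp before the start site, between ranked regions, with the nearest summit 231 bp away. In flp-19 the copies lay 299, 188 and 153 bp before the start site, and no region of the series list or of either replicate covered any of them. Windows from 250 bp before to 50 bp after the gene's 5' end held the word for flp-17 (1 copy) and flp-19 (2 copies), against 8.56% of the 19973 such windows in the genome. The windows of flp-10, flp-13, egl-13 and egl-46 held none. The word CAGGAA, another ETS-type sequence, was in the flp-13 window alone among the 6, against 14.1% of all windows. A match of letters describes the sequence and is not a binding site.

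The word lay under a ranked region of the series list at 2 places, both in egl-13 and shown here on its plus strand with 20 bases on each side.
egl-13 (chrX:5667959-5668004): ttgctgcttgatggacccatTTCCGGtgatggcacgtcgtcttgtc
egl-13 (chrX:5671367-5671412): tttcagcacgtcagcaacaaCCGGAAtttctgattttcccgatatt

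The first of these copies was in an intron, 25 bp from the summit of a region with a signal of 41.7, and the second was in a coding exon, 31 bp from the summit of a region with a signal of 17.3. Each was covered by a region of replicate 2, with signals of 21.2 and 12.8, and by none of replicate 1. The other ranked list of the series had a region over the first copy (41.7) but none over the second. Which copies lie under a region thus depends on the list used. The remaining 3 copies in egl-13 and the 1 in an intron of egl-46 lay under no ranked region. Of the 38 regions, 2 thus had the word within 100 bp of the summit, 5.26% (exact 95% binomial interval 0.644% to 17.7%), against 9.18% of all ranked regions. The interval covers counting error only, and its regions are not independent, since many lie in the same gene. The short core GGAA was in 35 regions (92.1%), against 87.9% of all, CAGGAA in 6 (15.8%), against 10.9%, and the SOX core ACAAT in 22 (57.9%), against 47.9%.

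The regions of highest signal in flp-17 and egl-46 held no CCGGAA within 100 bp of the summit. They are printed on the genes' minus strands because they are the 2 strongest of the 38.
flp-17 (chrIV:17190698-17190898): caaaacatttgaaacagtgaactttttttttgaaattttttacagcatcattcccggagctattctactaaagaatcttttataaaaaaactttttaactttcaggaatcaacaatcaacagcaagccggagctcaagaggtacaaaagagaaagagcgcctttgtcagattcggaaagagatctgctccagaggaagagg
egl-46 (chrV:6682380-6682580): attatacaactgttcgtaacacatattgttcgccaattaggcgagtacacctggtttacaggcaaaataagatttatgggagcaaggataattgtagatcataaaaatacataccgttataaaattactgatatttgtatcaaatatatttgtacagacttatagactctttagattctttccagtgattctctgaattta

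The flp-17 gene (WBGene00001460, chrIV:17190204-17191891, minus strand) had 6 ranked regions in the series list. The strongest, chrIV:17190643-17190952, had its summit in an intron 1093 bp after the start site, and 105 of its bases were coding. Its signal was 48.3 in the series list, and the overlapping regions had 28.4 in replicate 1 and 29.3 in replicate 2. Those values stood at the 93.2, 91.9 and 95.5 percentiles of the 3 lists, so the overlapping regions were high in each. The replicates' summits lay on opposite sides of the series summit, 90 bp away in replicate 1 and 60 bp away in replicate 2. The series region had a global irreproducible discovery rate (IDR) of 0.0950. The IDR is the authors' estimate of how poorly a region's rank recurs, and regions that passed had at most 0.01. The IDR depends on the list: in the other ranked list of the series, which gives these best regions the same signals, it was 0.0598 for flp-17, 0.128 for flp-10, 0.146 for flp-13, 0.142 for egl-13 and 0.153 for egl-46. The IDR values below are those of the series list. Upstream, a region 407 bp before the start site had a signal of 34.2 (percentile 74.9), and 1 at 648 bp had 15.6. Both of these overlapped the same replicate regions, of 20.2 in replicate 1 and 16.8 in replicate 2. At the start site itself, a region with its summit in a coding exon, 84 bp after the start, had a signal of 24.7, near the middle of the list, with 7.38 in replicate 1 and 11.4 in replicate 2. The other 2 regions, inside the gene, had signals of 17.2 and 8.08 and the highest IDR that the list gives. Neither replicate matched the first of these, and replicate 2 alone matched the other (18.9).

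The flp-13 gene (WBGene00001456, chrIV:7696932-7698420, minus strand) had 5 regions. The strongest, chrIV:7696965-7697274, lay at the gene's far end, 1300 bp after the start site, with its summit in an exon outside the coding sequence and 113 coding bases. Its signal was 43.2 (percentile 88.7, global IDR 0.149), and replicate 1 had an overlapping region of 23.1, while replicate 2 had none. A region 45 bp before the start site had its summit closer to the start site than any other region of the 4 peptide genes. Its signal was 32.7 (percentile 72.0, global IDR 0.278), with 17.9 in replicate 1 and 15.5 in replicate 2, and its summit in replicate 1 was at the same base. That start-site region was the best that replicate 2 held for flp-13, at the 55.2 percentile. The remaining 3 regions had signals of 8.42 to 14.6 and the highest IDR, and each overlapped a region of 1 replicate only.

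The flp-10 gene (WBGene00001453, chrIV:7868907-7870081, plus strand) had 3 regions. The strongest, chrIV:7869279-7869588, lay in an intron 527 bp after the start site and had a signal of 44.4 (percentile 89.9, global IDR 0.204). It was matched in both replicates, by regions of 24.1 in replicate 1 and 23.0 in replicate 2, at the 83.9 and 84.9 percentiles. The matching summits lay 117 bp away in replicate 1 and 33 bp away in replicate 2. This strongest region also falls within the searched interval of the neighbouring gene T06C10.3. A downstream region with a signal of 27.3 lay 238 bp from the start of T06C10.3 and 1606 bp from that of flp-10, so its assignment to flp-10 is uncertain. The remaining region lay 1260 bp upstream and had a signal of 25.1, with matches in replicate 1 alone. The stronger match (17.04) had its summit 218 bp away. The other, with its summit 1257 bp upstream of flp-10, had a signal of 6.94 (percentile 15.8). Replicate 1 held 8 regions at flp-10 and replicate 2 held 2.

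The flp-19 gene (WBGene00001462, chrX:10604686-10605831, plus strand) had 0 regions in the series list and 0 in replicate 1. In replicate 2 it had 4, with signals of 15.9, 12.7, 9.07 and 5.56, the strongest 881 bp before the start site at the 57.6 percentile. The gene sat in a gap of 15074 bp between neighbouring summits of the series list, which is the 27th longest of 21802 gaps on the X chromosome, where the median gap was 622 bp. In replicate 1 the gap was 17454 bp and in replicate 2 it was 1345 bp. Absence from the list was uncommon but not rare: 96.4% of protein-coding genes had a ranked region by the same rule, which left 714 genes without one. Of the 8611 genes searched over 4001 bp, as flp-19 was, 4.20% had none. The share of genes with a region was 96.5% in replicate 1, where 5 of the 6 genes had one, and 95.7% in replicate 2, where all 6 did.

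**Figure D1:**
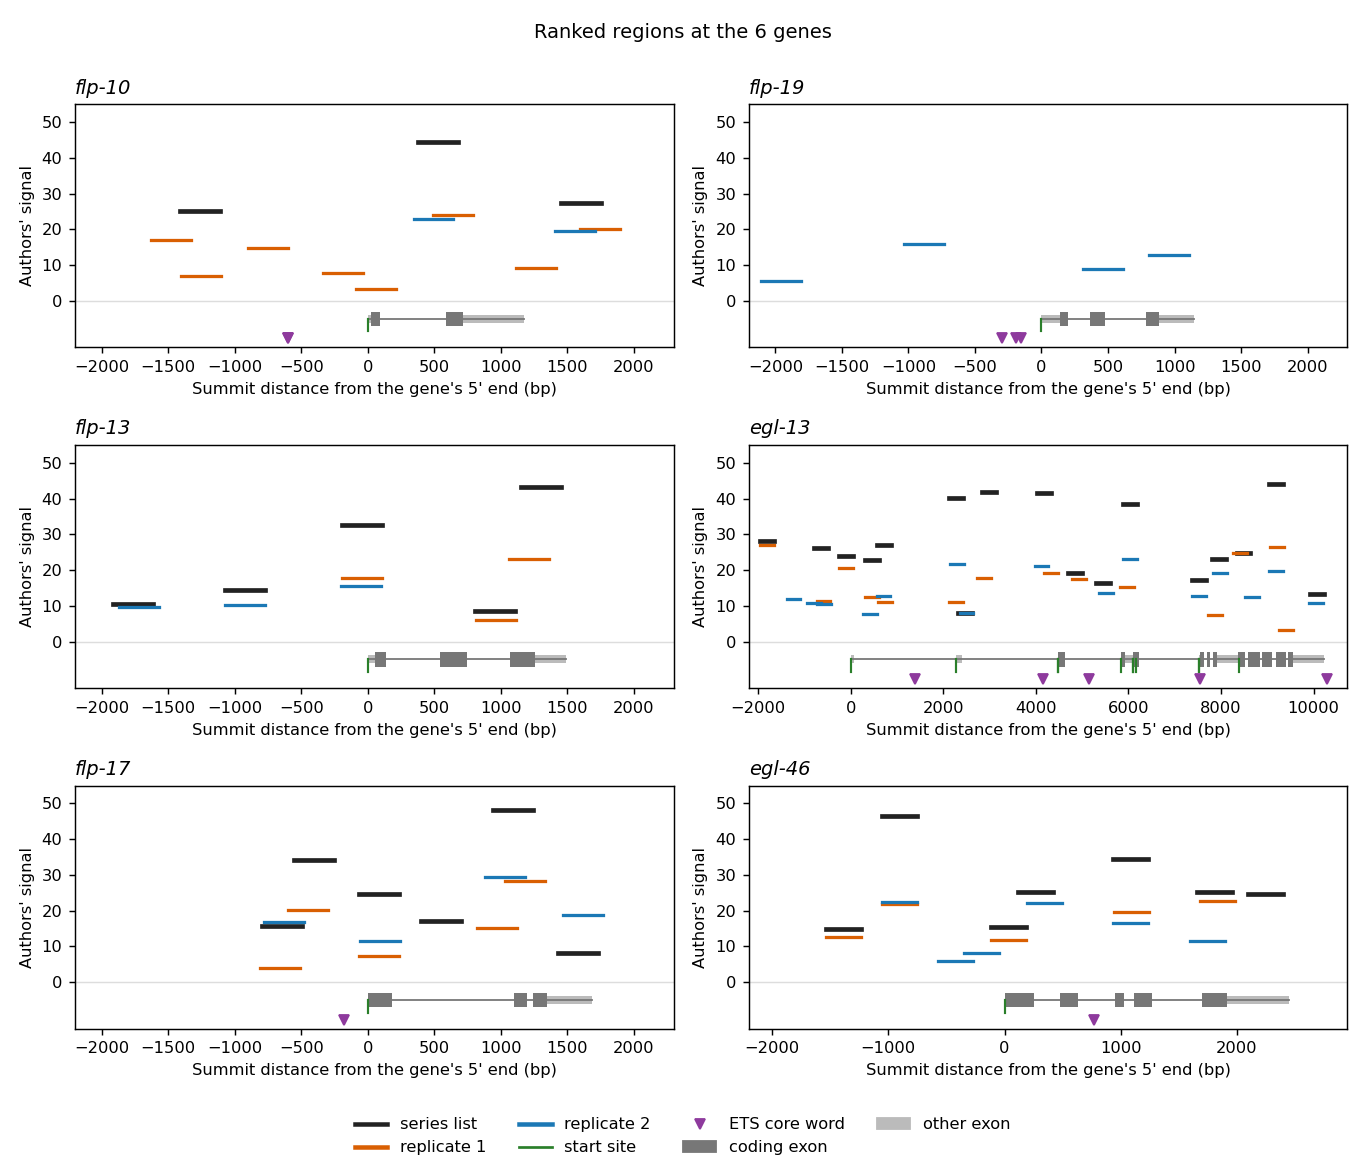
Ranked regions at each gene, by distance of the summit from the gene's 5' end (horizontal, bp) and the authors' signal (vertical, scale not stated). Bars of 300 bp centred on the summit stand for regions, black for the series list, orange for replicate 1 and blue for replicate 2, whose signals are on separate scales. Below 0 the gene model shows coding exons, other exons and start sites, and triangles mark the ETS core word, which falls away from the black bars except at 2 places in egl-13. Among the black bars flp-17 reaches 48.3, and flp-19 has none.

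The egl-13 gene (WBGene00001182, chrX:5663837-5674067, plus strand) is the longest of the 6, with 11 start sites among 13 annotated transcripts, and it held 17 of the 38 regions. Per kb searched this was 1.37 regions, against a median of 1.31 over all protein-coding genes, so its count was high while its density was near that median. The strongest region, chrX:5672877-5673186, was in a coding exon near the gene's far end and had a signal of 43.96 (percentile 89.4, global IDR 0.219), with 26.6 in replicate 1 and 19.7 in replicate 2. Close behind it by signal were 3 regions nearer to internal start sites. The region of signal 41.8 lay in an intron 707 bp past a start site and was matched in replicate 1 (17.9) but not in replicate 2. The region of 41.7, with its word in capitals above, lay 313 bp before a start site and was matched in both, by 19.1 in replicate 1 and 21.2 in replicate 2. The matching summits lay 151 bp away in replicate 1 and 49 bp away in replicate 2. The region of 40.1 had its summit 1 bp from a start site, and was much lower in replicate 1 (11.0, percentile 32.5) than in replicate 2 (21.8, percentile 81.8). By contrast the outermost start site, at the gene's 5' end, had a region 99 bp upstream with a signal of 24.0, near the middle of the list, and it was matched in replicate 1 alone (20.7). In all, 11 of the 17 regions lay within 500 bp of a start site. Windows around the 11 start sites take up a large part of the searched interval, and that share was not measured. Of the 17 regions, 10 were matched in both replicates. The best region was a different one in each replicate: in replicate 1 it lay 1807 bp before the first start site (27.1, percentile 89.9), and in replicate 2 it lay 70 bp before an internal start site (23.2, percentile 85.5).

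The egl-46 gene (WBGene00001210, chrV:6679123-6681573, minus strand) had 7 regions. The strongest, chrV:6682325-6682634, lay 907 bp upstream, and it is the only one of the genes' best regions with its summit before the gene. Its signal was 46.4 (percentile 91.8, global IDR 0.124), with 21.9 in replicate 1 and 22.6 in replicate 2, and the summits agreed within 6 bp. A region in an intron 1085 bp after the start site followed at 34.6 (percentile 75.6), also matched in both replicates, by 19.6 in replicate 1 and 16.5 in replicate 2. The region over the start site, with its summit 35 bp after it in a coding exon, had a signal of 15.5 and the highest IDR. The other upstream region, at 1384 bp, was similarly low (14.8). The remaining regions, inside the gene, had signals of 24.75 to 25.2. Replicate 1 put a coding-exon region 1836 bp inside the gene first (22.8), ahead of the upstream one, whereas replicate 2 put the upstream region first.

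Recurrence between the replicates was like that of the list as a whole. Both replicates had an overlapping region for 22 of the 38 regions, 57.9% (exact 95% binomial interval 40.8% to 73.7%), against 55.8% of all ranked regions. Replicate 1 overlapped 30 of them, 78.9% against 80.4% of all, and replicate 2 overlapped 28, 73.7% against 69.0% of all. The highest IDR in the list, 0.657, is shared by 38.0% of all ranked regions, and 12 of the 38 had it (31.6%). Regions in the top 10% by signal numbered 2 of 38, the best of flp-17 and of egl-46. The median signal of the 38 was 24.9, at the 53.5 percentile, against 23.6 over all 126002. The regions that passed had a median of 83.8, but their lowest signal, 3.14, was below the lowest of the 38 (7.91). Sequence around the summits had a GC content of 38.6% ± 6.08 (SD over 38 regions), against 38.3% ± 6.91 over all ranked regions.

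**Figure D2:**
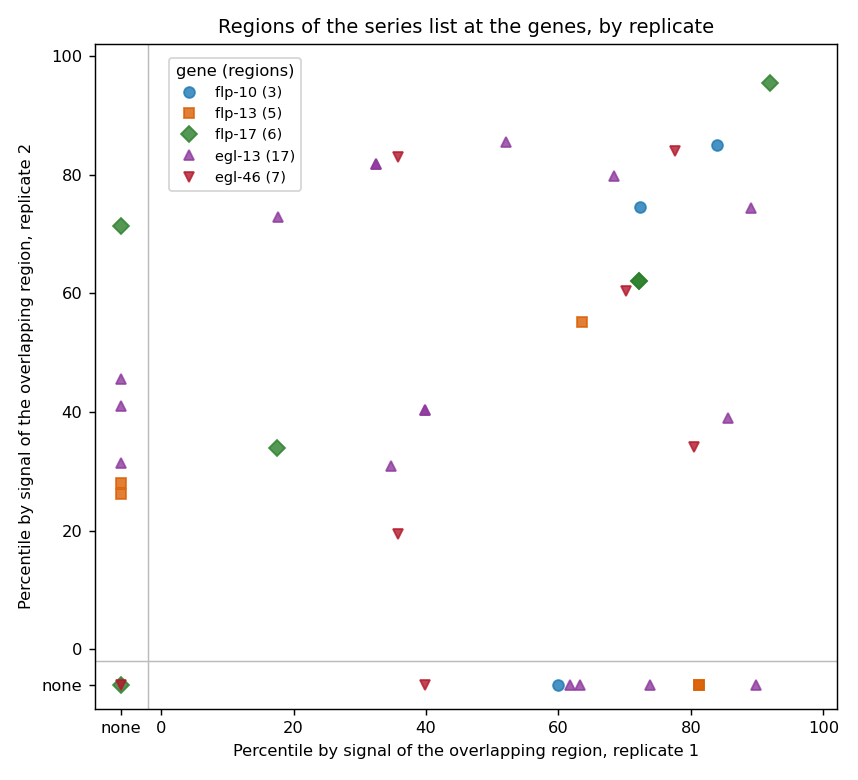
Each point is 1 of the 38 regions of the series list, placed by the percentile by signal of the overlapping region in replicate 1 (horizontal) and in replicate 2 (vertical), with shapes and colours for genes and the margin marked none for regions without an overlap. Only the best region of flp-17 is above the 90 percentile in both, and several egl-13 regions are high in 1 replicate and low or missing in the other. Some points lie on top of each other because neighbouring regions overlap the same replicate region.

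The best regions of the 5 genes that had one lay near the median of all genes. Their percentiles ran from 88.7 (flp-13) over 89.4 (egl-13), 89.9 (flp-10) and 91.8 (egl-46) to 93.2 (flp-17), and their median of 89.9, over 5 genes, equals to 3 digits that of the 19259 genes with a region. With the gene body and 500 bp or 1000 bp around start sites, the median of the 5 genes was above that of all genes (89.4 against 84.5 and 89.9 against 86.5). The quartiles of those genes were 79.99 and 95.9. Of genes with a region, 62.5% had a lower best region than flp-17 and 46.1% a lower one than flp-13. A region in the top 10% by signal was held by 2 of the 6 genes, against 47.9% of protein-coding genes. In replicate 1 the median was 83.9 over 5 genes, against 88.6 for all genes, and in replicate 2 it was 84.4 over 6 genes, against 85.9. The order of the genes changed between replicates, except that flp-17 was first in both. In replicate 1 egl-13 stood at 89.9 and egl-46 was last (80.5). In replicate 2 flp-10, egl-13 and egl-46 stood within 2 points of each other, with flp-19 and flp-13 well below. Genes with longer searched intervals have more chances of a high region, and among genes searched over 4001 bp the median was 86.2.

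**Figure D3:**
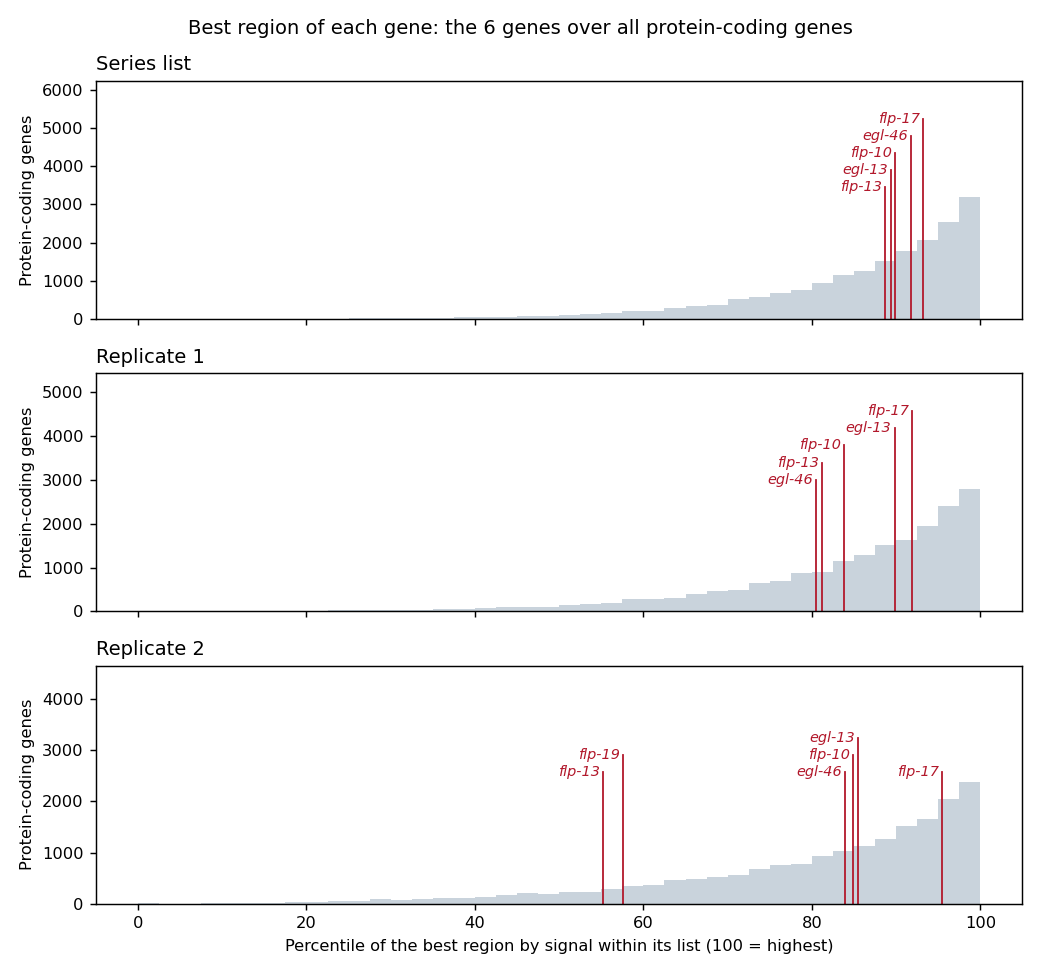
The grey bars count protein-coding genes (vertical) by the percentile of their best region by signal (horizontal, in bins of 2.5 points), in the series list, in replicate 1 and in replicate 2. Red lines mark the genes, which lie between 88.7 and 93.2 in the top panel, inside the bulk of all genes. In replicate 2 flp-13 and flp-19 lie at 55.2 and 57.6.

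Looser limits on the IDR brought in 1 gene. At a global IDR of at most 0.05, 0 of the 6 genes had a region, against 10.1% of protein-coding genes. At 0.1 only flp-17 did, against 25.4% of protein-coding genes. The distance to the nearest region that passed the threshold was 162651 bp for egl-46, 190030 bp for flp-13 and 362005 bp for flp-10. It was 488385 bp for flp-19, 561036 bp for egl-13 and 1665677 bp for flp-17. Only 250 regions passed in the whole genome, and these distances were not compared with those of other genes. The passing region nearest to egl-13 lay at the yolk protein gene vit-2 and had a signal of 103. The tagged gene ets-5 itself had 4 passing regions and a best signal of 128. The strain carries an integrated ets-5 transgene and an input control was not analysed. Extra DNA copies and occupancy therefore cannot be told apart at ets-5.

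Apart from ets-5, no gene of the other lists passed the threshold, and the lists differed below it. Of 27 further FLP genes, 26 had a ranked region, 0 passed the threshold and 2 were within an IDR of 0.05, flp-34 (signal 63.5) and flp-27 (56.3), and flp-5 (52.9) came next by signal, while flp-21 had no region. Among 12 receptor genes for such peptides, 0 passed and only dmsr-7, which encodes a receptor of the DMSR family, was within 0.05 (signal 69.4). The receptor gene npr-5 (47.6) and the neuropeptide receptor gene npr-4 (46.5) followed, and egl-6, whose product binds FLP-10 and FLP-17, had a best signal of 46.1. Of 8 genes for peptide processing and release, 7 had a region, pamn-1 had none and 0 passed. The proprotein convertase gene egl-3 (71.9) and ida-1, for a dense-core vesicle protein (68.2), were within 0.05, and pghm-1, for an amidating enzyme, had 59.8. The median best percentile was 89.9 for the genes described here, against 91.7 for the further FLP genes, 86.1 for the receptors and 96.3 for the processing and release genes, which were not matched for length.

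Among 7 regulators that include ets-5, the Pax6 homologue vab-3 (63.3), the Sox gene sem-2 (59.0) and egl-44 (49.96), whose product works with EGL-46 in other neurons, had ranked regions, and ets-5 alone passed. Within an IDR of 0.05 were ets-5 and sem-2 (0.0230). Of 6 gas-sensing genes that again include ets-5, gcy-33 (73.9) and gcy-31 (44.3), for soluble guanylyl cyclases, came after it, and gcy-33 was within 0.05 (0.0194). The best signals of egl-46 and flp-17 were thus above those of gcy-31, gcy-9 (44.1), tax-4 (43.4) and tax-2 (35.3), within the series list. This order did not hold throughout in the replicates. In replicate 1, gcy-31 (percentile 85.8) and tax-4 (82.2) were above egl-46 (80.5). In replicate 2, gcy-31 (96.8) was above flp-17 (95.5), and gcy-31 and gcy-9 (91.3) were above egl-46 (83.9). The other pairs kept their order.

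**Figure D4:**
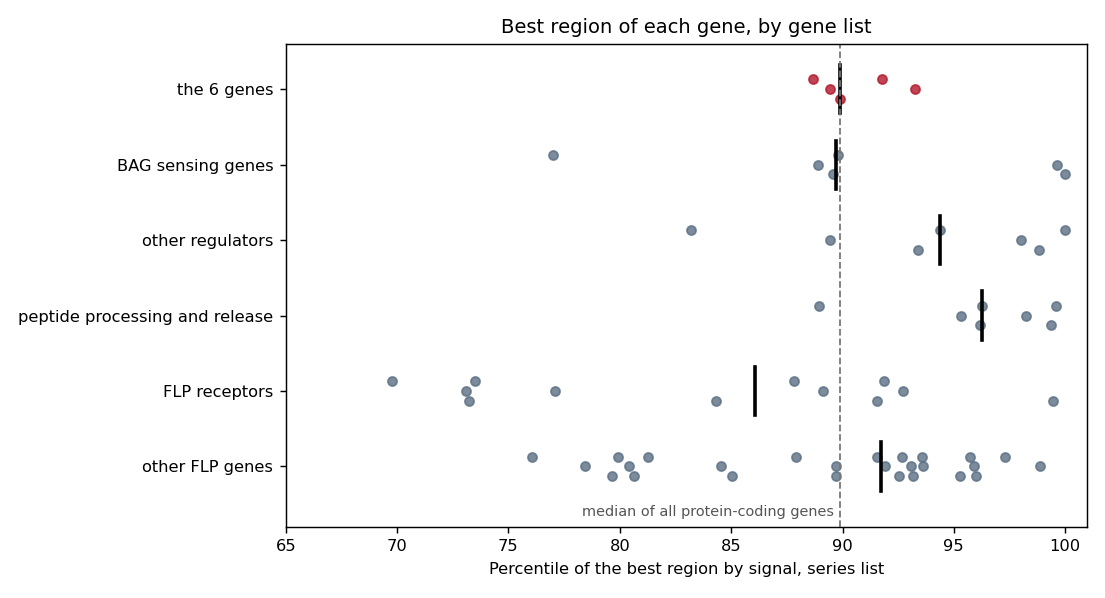
Each dot is 1 gene, placed by the percentile of its best region by signal in the series list (horizontal), with the 6 genes in red above the other gene lists. Black bars are medians and the dashed line is the median of all protein-coding genes, 89.9. The red dots lie between 88.7 and 93.2, close to that line, and genes without a ranked region are not drawn.

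The genes most like each of the 6 were sought by the percentiles of their best regions in the 3 ranked lists, taking the largest of the 3 differences. For flp-10 it was its neighbour T06C10.3, which shares regions with it (0.302 points). For flp-17 it was cth-1 (0.569 points), for egl-13 col-147 (0.266), for egl-46 C16D9.6 (0.752) and for flp-13 another peptide gene, flp-2 (1.06). In the series list the best region of flp-2 lay downstream of the gene, 1987 bp from a start site. The best region of flp-3, on the same chromosome and 273 bp upstream of that gene, had the same signal, rank and IDR. It thus appears to be the same region, which lies nearer to flp-3 than to flp-2. The measure rests on 3 lists that share libraries, and 2056 genes were within 5 points of flp-17, so the nearest gene is a description only. For flp-19 no such gene could be given.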

How the data were processed

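Region lists of 2 biological replicates of ETS-5 ChIP-seq were used as deposited, 4 ranked and 4 that pass a threshold. Per the labels, chromatin was sonicated (fragments of 200 to 800 bp) and the assembly is ce11. Aligner and peak caller names were not given in the sources used here. Read depth is unknown, and an input control was not analysed here. The deposited signal is the caller's value per region. The deposited score is a whole number of at most 1000. The deposited −log10 of the global IDR was turned back to the IDR. Other deposited columns used were summit offsets.

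Genes came from Ensembl release 115 (WBcel235), which differs from RefSeq by a few bases at flp-13 and egl-13 only among the 6 genes, and all region ends lay inside the reference chromosomes. Coordinates are 1-based. Regions went to every protein-coding gene whose searched interval held the summit. Best regions are by signal, words were sought within 100 bp of the summit, and the assignment was tested on simulated data. Where more than 1 region of a replicate overlapped a region, the match of highest signal was taken. Python 3.11.15, pandas 2.3.3 and scipy 1.17.1 were used. No test between groups was possible with 1 group, so shares are given beside those of all genes or regions. Named other genes are the 3 of each list with the highest signal, any that pass and, chosen after their values were seen, egl-6, egl-44, gcy-9, tax-4 and tax-2. The genes, lists and alternatives were chosen with earlier results of these data known.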

Additional observations from a re-analysis of the deposited data

How the results depend on the processing

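The count of genes with a ranked region was 5 in the series list and between 5 and 6 in all alternatives tried: windows of 1000 bp and 500 bp, the gene's 5' end as the only start site, any overlap in place of the summit, the other ranked list of the series, each replicate alone and, chosen after seeing the data, start-site windows without the gene body. The count of regions, 38, ranged from 29 (500 bp) to 40 (any overlap), and without replicate 1 and without replicate 2 it was 34 and 35. The median best percentile, over 5 genes, was 89.9 against 89.9 for all genes in the series list and 89.8 against 89.8 in the other ranked list, but the comparison moved with the rule. It was 89.4 against 84.5 with 500 bp, 89.9 against 86.5 with 1000 bp, 89.9 against 88.4 for start-site windows without the gene body, 89.9 against 87.2 for best regions by IDR and 91.8 against 90.4 with any overlap. It was below all genes in each replicate, at 83.9 against 88.6 without replicate 2 (5 genes) and 84.4 against 85.9 without replicate 1 (6 genes). With 500 bp the best percentile of egl-46 was 75.6 once its upstream region was left out. The count of 0 genes passing the threshold was 0 in the conservative list, in each replicate and at an IDR of 0.05, and 1 at 0.1. In the replicates a count of 0 says little, since only 21 (replicate 1) and 26 (replicate 2) regions passed in the whole genome. The share of regions matched in both replicates was 44.7% at 50% reciprocal overlap, against 41.3% of all ranked regions. The ETS word was in 5.26% of regions with windows of 50 bp, 150 bp or the whole region, against 5.21%, 12.8% and 13.1% of all ranked regions, and in 92.1% for GGAA. No paired analysis was possible because there is only 1 group. Read depth was not given, so a region below the threshold is not shown to be unoccupied.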
